A study of Mus musculus with 2 samples.

Results

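Kidney group 2 innate lymphoid cells (ILC2s) in which no transcript of Il5 or Il13 was captured are described here. They come from 2 single-cell libraries of lupus-prone mice. A cell counted as an ILC2 when it had at least 200 genes, at most 20% mitochondrial UMIs (unique molecular identifiers, each standing for 1 captured transcript), and a UMI in at least 2 of the 4 genes Il1rl1, Gata3, Il17rb and Il2ra. It also had to hold 0 UMIs of the T cell genes Cd3d, Cd3e, Cd3g, Trac and Foxp3 and of the basophil and mast cell genes Mcpt8 and Cpa3. Of the ILC2s so chosen, those with 0 UMIs of Il5 and Il13 are called cytokine-negative ILC2s. Those with at least 1 such UMI are called cytokine-positive ILC2s. Both names refer to captured UMIs of Il5 and Il13 only, and not to cytokines in general. The cytokine gene Csf2, for example, had UMIs in 306 cytokine-negative ILC2s of the young library and 75 of the old. The rule found 1113 cytokine-negative ILC2s among 21661 cells that passed the gene and mitochondrial limits. The young library held 859 of them among 11429 cells (7.52%, 95% exact binomial interval 7.04 to 8.01), and the old library held 254 among 10232 cells (2.48%, 2.19 to 2.80). The intervals given here and below cover counting error only.

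ILC2s are tissue-resident lymphocytes without rearranged antigen receptors that depend on the transcription factors GATA3 and RORα. They respond to the alarmins IL-33, through the receptor encoded by Il1rl1, and IL-25, through the receptor subunit encoded by Il17rb. Their best known products are the type 2 cytokines encoded by Il5 and Il13, and amphiregulin, an epidermal growth factor receptor ligand linked to tissue repair.

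Both libraries came from kidneys of MRL-lpr mice, a strain that carries a mutation of the death receptor gene Fas and develops lupus nephritis, and the groups differed in age, labelled young or old. Kidneys were pooled within an age, immune cells were separated on a density gradient, ILCs were enriched with a kit, and live cells were captured with 3′ chemistry. There was 1 library per age and no library from a strain without lupus, so age cannot be told apart from library, and no test between ages was possible. The median depth of the cytokine-negative ILC2s was 4985 UMIs in the young and 5409.5 UMIs in the old library. UMIs of Y-linked genes without Xist were present in 449 young and 137 old cytokine-negative ILC2s, and Xist without Y-linked UMIs in 168 and 64. Each pool therefore held cells of both sexes, although the study's methods describe its young and its old MRL-lpr mice as female. The libraries shared 41 barcodes, of which 1 belonged to a young cytokine-negative ILC2 and none to an ILC2 of this kind in both.

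The label was checked on genes that the rule did not use. Rora, which encodes RORα, was present in 94.2% of young and 92.1% of old cytokine-negative ILC2s, at 1072 and 1136 CPM (UMIs of the gene per 1000000 UMIs of the summed cells). In T, NK, ILC1 and B cells together, called other lymphocytes below, Rora stood at 228 and 105 CPM. Il7r, the receptor for the survival cytokine IL-7, was present in 91.2% and 91.3% of cytokine-negative ILC2s. Markers of other cells were not absent. Trbc2, a T cell receptor constant gene outside the rule, was at 305 and 327 CPM, against 1473 and 1957 CPM in T cells. Trbc2 UMIs occurred in 568 young and 158 old cytokine-negative ILC2s.

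A small number of cells carried genes of a second cell type. At least 2 genes of NK, myeloid, distal epithelial, endothelial or B cells, or 10 or more UMIs of the plasma cell gene Jchain, were found in 36 young (4.19%) and 20 old (7.87%) cytokine-negative ILC2s. Their median depth was 10462 and 15942 UMIs, against 4894 and 5270 UMIs in the rest. NK genes accounted for 9 young and 14 old of these cells, and Il1rl1 was present in 3 of those 14. Slc34a1, a phosphate transporter of the proximal tubule, had a UMI in 54.7% of young and 31.5% of old cytokine-negative ILC2s, with 10 or more UMIs in 7.92% and 3.94%. The comparison classes were defined with 0 UMIs of Slc34a1, and the ILC2s were not. Each result was therefore also computed in a restricted set of 377 young and 164 old cytokine-negative ILC2s with no second-type genes and no UMI of Slc34a1, C1qa, Cd79a or Ms4a1. This set was chosen after the values were seen.

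The genes that set cytokine-negative ILC2s apart from other lymphocytes by the widest ratio in both libraries were 1700113H08Rik, Fbxl21, Slc7a8, Bmp2, Anks6, Stab2, Calca, Mmp16, B3galt2, Cxcl1, Areg and Mctp1. Promoters from RefSeq (GRCm38.p6, 250 bases before to 50 after the gene start) matched 9 of these 12 genes, and the 3 without an entry were Bmp2, Anks6 and Mmp16. Motifs of 3 factor families were searched on both strands, since Gata3, Rora and Fos are all high in these cells. AGATAA, the core bound by GATA3 and its relatives, was in 2 of 9 promoters, against 11.4% of 27025 promoters of the same length. AGGTCA, the core bound by ROR and other nuclear receptors, was in 2 of 9, against 16.0%. TGANTCA, the AP-1 core, was in 1 of 9, against 7.93%. The promoters of Calca, which holds the first pair of motifs, of Stab2, which holds the nuclear receptor core at 2 positions, and of Areg, which holds none of the 3 motifs, are shown 5′ to 3′ with matches in capitals. In Calca the capitals are the reverse complements of the motifs.
Calca, chr7:114636308-114636607 (-): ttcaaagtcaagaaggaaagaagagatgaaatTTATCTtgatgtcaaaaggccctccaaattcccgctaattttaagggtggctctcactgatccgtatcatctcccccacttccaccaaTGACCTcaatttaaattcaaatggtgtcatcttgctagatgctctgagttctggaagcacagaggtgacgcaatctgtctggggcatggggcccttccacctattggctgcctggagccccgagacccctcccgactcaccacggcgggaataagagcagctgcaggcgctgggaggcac
Stab2, chr10:87007893-87008192 (-): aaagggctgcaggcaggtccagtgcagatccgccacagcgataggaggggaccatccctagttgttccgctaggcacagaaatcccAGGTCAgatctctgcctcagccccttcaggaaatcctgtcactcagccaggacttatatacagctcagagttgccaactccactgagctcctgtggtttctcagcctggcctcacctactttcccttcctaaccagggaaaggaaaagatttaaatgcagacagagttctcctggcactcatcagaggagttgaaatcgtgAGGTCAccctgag
Areg, chr5:91139349-91139648 (+): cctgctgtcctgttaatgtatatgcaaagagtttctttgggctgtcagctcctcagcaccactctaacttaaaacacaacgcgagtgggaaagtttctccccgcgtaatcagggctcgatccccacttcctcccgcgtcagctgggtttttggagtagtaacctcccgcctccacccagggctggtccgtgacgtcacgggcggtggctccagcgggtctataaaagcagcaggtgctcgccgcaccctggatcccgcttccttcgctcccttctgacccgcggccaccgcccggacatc
A match is a description of the letters in this window and not a binding site.

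The lack of Il5 and Il13 UMIs was common among ILC2s and varied with depth. Cytokine-negative cells were 74.3% of 1156 ILC2s in the young library (71.7 to 76.8) and 83.0% of 306 in the old library (78.3 to 87.0). In the young library the share was 90.4% among ILC2s under 3000 UMIs, 78.0% between 3000 and 6000 UMIs, and 65.0% at 6000 UMIs or more. In the old library it was 94.7%, 81.5% and 81.1% in the same order. The intervals of the libraries overlapped in the shallow and the middle bins and did not overlap at 6000 UMIs or more, where they were 60.3 to 69.5 in young and 73.1 to 87.7 in old.

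**Figure D1:**
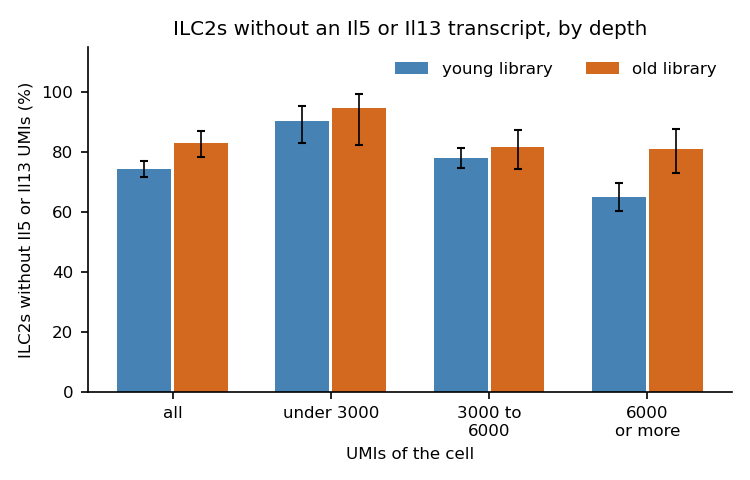
Share of ILC2s without an Il5 or Il13 UMI (percent, vertical axis) for all ILC2s and for 3 bins of UMIs per cell (horizontal axis), in the young and old libraries. Bars are shares and lines are 95% exact binomial intervals; the share is highest under 3000 UMIs (90.4% and 94.7%) and falls to 65.0% in the deepest young cells.

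The line between the classes lay at 1 UMI for many cells. Of the cytokine-positive ILC2s, 162 of 297 in the young and 26 of 52 in the old library held exactly 1 UMI of Il5 or Il13. When cytokine-positive ILC2s were thinned at random to 1000 UMIs, no such UMI was left in 72.2% (young) and 63.5% (old). An ILC2 without a UMI is therefore a cell in which none was captured, and is not shown to lack the transcript.

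Values just inside and outside the rule are given as a description, since the rule chose the cells by these transcripts. In the young library Areg was at 785 CPM in cytokine-negative ILC2s, at 1108 CPM in cytokine-positive ILC2s with 1 UMI of Il5 or Il13, and at 1544 CPM in those with 2 or more. In the old library the same values were 1448, 2403 and 1675 CPM, so the order of the last pair was opposite. Cells with UMIs in 2 of the 4 rule genes had Rora in 89.3% of 233 young and 81.2% of 64 old cells. Cells with a UMI in only 1 of the 4, just outside the rule, were deeper (median 14044 and 15083 UMIs), yet Rora was found in 65.0% and 57.9% of them and Areg in 5.49% and 3.64%. Slc34a1 was in 82.0% and 58.4% of these outside cells.

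Within the rule, cells with more of the 4 genes had more Areg. Areg was found in 45.9%, 53.1% and 64.3% of young cells with 2, 3 and 4 rule genes, and in 51.6%, 70.7% and 79.7% of old ones. The median depth of these groups also went up, from 4244 to 5672.5 UMIs in young and from 4983.5 to 5629 UMIs in old. Cells whose only rule genes were Gata3 and Il17rb numbered 48 young and 9 old.

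Against other lymphocytes, cytokine-negative ILC2s were marked by growth factors and a neuropeptide, by receptors for neuropeptides and lipid mediators, and by AP-1 genes. The other lymphocytes numbered 514 young (267 T, 76 NK and ILC1, 171 B) and 3373 old (3072 T, 142 NK and ILC1, 159 B) cells, so the makeup of this comparison group differed between libraries. Ratios were more than 2-fold above other lymphocytes in both libraries for 698 of 7870 genes (8.87%) and more than 2-fold below for 298 (3.79%). Of the 698, 464 had a lower CPM in the ILC2s than in proximal tubule cells in at least 1 library. The restricted set had 387 of 7487 genes (5.17%) above and 399 (5.33%) below, and 281 of the 698 and 256 of the 298 were among them. The median log2 ratio of all genes tested was 0.04 in young and 0.10 in old.

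Among secreted factors, Areg, which encodes amphiregulin, was at 785 CPM (762 to 809) in young and 1448 CPM (1392 to 1506) in old cytokine-negative ILC2s, against 55.8 and 23.5 CPM in other lymphocytes. Calca, which encodes the neuropeptide CGRP, was at 306 and 413 CPM against 18.9 and 3.02 CPM. Csf2, which encodes GM-CSF, was at 197 and 163 CPM against 14.9 and 3.07 CPM. For each of the 3 genes the level in proximal tubule cells, taken as a measure of free RNA, was 3.26 CPM or less. Of 8 cytokine and growth factor genes tested, 5 were above 2-fold in both libraries (Areg, Csf2, Lif, Calca and Hbegf) and 1 was below (Ifng), with medians of 2.15 and 2.84. Hbegf, an epidermal growth factor receptor ligand, was at 39.1 and 35.1 CPM in the ILC2s and at 171 and 166 CPM in proximal tubule cells, and in the restricted set its log2 ratios were 0.27 and -0.17. Il9, Il6 and Penk had no UMI in any of the 1113 cells. Il4 had UMIs in 47 young and 14 old cells.

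The other leading genes covered adhesion, signalling and transport. Stab2, which encodes a hyaluronan scavenger receptor, was at 454 and 269 CPM against 27.7 and 3.12 CPM in other lymphocytes, log2 ratios of 4.03 (3.69 to 4.40) and 6.43 (6.05 to 6.83). Slc7a8, a neutral amino acid transporter, was at 265 and 319 CPM against 11.6 and 4.83 CPM, with 65.9 and 44.0 CPM in proximal tubule cells. Bmp2, a bone morphogenetic protein ligand, was at 95.9 and 62.0 CPM, and Mmp16, a membrane-bound metalloproteinase, at 160 and 170 CPM. Each of these genes was above T, NK and ILC1, and B cells summed in each library. The CXC chemokine Cxcl1 was at 62.2 and 100 CPM, but proximal tubule cells of the old library held 52.4 CPM. The log2 ratios of 1700113H08Rik were 5.41 and 6.19 at 34.2 and 32.2 CPM. Fbxl21, an F-box protein gene, Anks6, B3galt2 and Mctp1 had log2 ratios between 3.79 and 5.81. In the restricted set 11 of the 12 leading genes kept their place, and Grin2d stood in place of Mctp1.

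**Figure D2:**
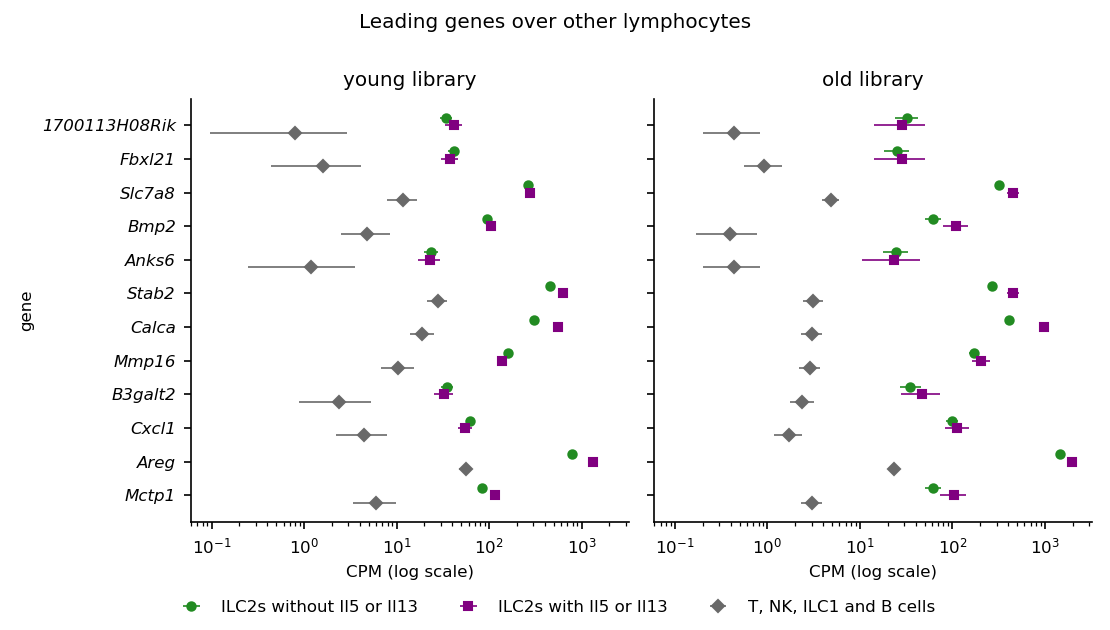
CPM (log scale, horizontal axis) of the 12 leading genes (vertical axis) in cytokine-negative ILC2s, cytokine-positive ILC2s and other lymphocytes, in the young (left) and old (right) library. Points are the CPM of summed cells and lines 95% exact Poisson intervals; both ILC2 classes lie to the right of other lymphocytes for every gene, as for Areg with 785 and 1448 against 55.8 and 23.5 CPM.

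Of 14 lineage transcription factor genes tested, 6 were above 2-fold in both libraries and 1 below, with median log2 ratios of 0.63 and 0.29. Id2, which holds back T and B cell programmes, was at 1710 and 1714 CPM against 759 and 753 CPM, while proximal tubule cells held 1136 and 1097 CPM. Pparg, a lipid-sensing nuclear receptor used by ILC2s, was at 73.9 and 63.8 CPM against 11.2 and 1.95 CPM. Rora, Gfi1, Lmo4 and Klf5 made up the rest of the higher group. Tcf7, which encodes TCF-1, was the gene below, at 9.37 and 19.9 CPM against 124 and 204 CPM. The same 6 genes and Tcf7 passed the fold in the restricted set.

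Receptors for neuropeptides and lipid mediators were mostly higher in both libraries. Of 8 neuropeptide and lipid mediator receptor genes tested, 6 were above 2-fold in both libraries and none below, with median log2 ratios of 1.77 and 3.86. Ltb4r1, the receptor for leukotriene B4, was at 224 and 174 CPM against 45.8 and 5.37 CPM. Cysltr1, a cysteinyl leukotriene receptor, was at 108 and 118 CPM against 13.6 and 1.02 CPM, and Ptgir, the prostacyclin receptor, at 78.7 and 93.0 CPM against 6.82 and 0.878 CPM. Ramp1, a subunit of the CGRP receptor, was at 236 and 147 CPM against 109 and 17.5 CPM. Vipr2, a receptor for vasoactive intestinal peptide, was also above 2-fold in both libraries. The restricted set had 8 of 9 above. Nmur1, the neuromedin U receptor, was low at 13.3 and 14.6 CPM, with 0.803 and 0.0976 CPM in other lymphocytes.

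Of 12 cytokine receptor and costimulation genes, 4 were above (Il7r, Tnfrsf25, Icos and Il9r) and 1 below (Cd40lg), with medians of -1.39 and -0.67. Icos, a costimulatory receptor, was at 412 and 463 CPM against 144 and 190 CPM. Tnfrsf25, the receptor for TL1A, was at 60.0 and 57.9 CPM against 26.5 and 8.59 CPM. Among enzymes Arg1, arginase-1, was at 88.1 and 39.2 CPM against 15.7 and 1.17 CPM, and with Ptgs2 it was above 2-fold among 4 eicosanoid and arginine enzymes tested. Of 6 chemokine genes Ccl1 and Cxcl2 were above and Ccl5 was below. In the restricted set 4 of 6 were below (Ccl3, Ccl4, Ccl5 and Xcl1) and the same 2 above, and the medians were -5.69 and -5.38 against -4.37 and -0.23 among all cytokine-negative ILC2s. None of 11 cell cycle genes passed in both libraries, while in the restricted set 4 of 8 (Mki67, Top2a, Birc5 and Stmn1) were below, with medians of -1.19 and -3.21.

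Of 15 immediate early and heat shock genes, 8 were above 2-fold in both libraries and 1, Hspa1a, was below, with medians of 1.02 and 1.27. Fos was at 4700 and 4446 CPM against 1425 and 1152 CPM, and Junb at 5544 and 6348 CPM against 2733 and 2189 CPM. Both encode subunits of AP-1. Tissue dissociation is known to induce these genes, and its part in the difference was not tested.

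Integrins and residency genes gave a mixed picture. Itga4, the α4 subunit, was at 285 and 312 CPM in cytokine-negative ILC2s and 262 and 412 CPM in other lymphocytes, and Itgb7, the β7 subunit, at 194 and 239 against 201 and 191 CPM. Neither subunit differed by 2-fold. Of 8 integrin genes tested, Itgb3 was above (56.4 and 54.4 against 23.7 and 9.22 CPM) and Itgb1 and Itga1 were below, with medians of -0.37 and -0.49. Cytokine-negative ILC2s with UMIs of both Itga4 and Itgb7 made up 41.8% in young and 51.6% in old. Areg in cells with both was at 761 CPM in young and 1502 CPM in old, against 808 and 1383 CPM in the other cytokine-negative ILC2s. The intervals overlapped in young (728 to 795 and 775 to 841 CPM) and in old (1425 to 1583 and 1301 to 1468 CPM). The share of cells with an Areg UMI was higher in cells with both in each library, at 61.6% against 49.2% in young and 71.0% against 65.9% in old, and these cells were also deeper (median 5647 against 4527.5 and 5927 against 4767 UMIs).

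Of 15 residency and migration genes, 7 were below 2-fold and 1 was above, with medians of -0.83 and -0.94. The gene above was Ccr9, a gut-homing chemokine receptor, at 128 and 259 CPM against 20.1 and 5.12 CPM. S1pr1, which guides lymphocytes out of tissue, had 11 young and 4 old UMIs in all (1.98 and 2.34 CPM), against 102 and 104 CPM in other lymphocytes. Klf2, which drives S1pr1, was at 370 and 470 CPM against 1122 and 1011 CPM. Ccr7, Gpr183, Cxcr4 and S1pr4 were also below, and S1pr4 did not pass the fold in the restricted set.

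The lowest genes were T and B cell genes: Gm8369, Cd8b1, Cd5, Slamf6, Ms4a1, S1pr1, Sidt1 and Gzmk. Cd5, a T cell inhibitory receptor, had 1 UMI in the young and 0 in the old cells, which allows up to 3 counts, against 76.7 and 153 CPM in other lymphocytes. Gzmk, a granzyme of memory T cells, had 0 young and 1 old UMI. Of the 8 genes, Gm8369, Cd8b1 and Slamf6 were also among the 8 lowest of the restricted set. Gzma, Ifi27l2a, Ccl5, Gzmb and Sh2d1a were the other 5 there. In that set Cd5, Ms4a1 and Sidt1 had 0 UMIs in each library, and Gzmk had 0 young and 1 old UMI. Ratios with 0 UMIs are to the limit of 3 counts, and Ms4a1 was 0 there by definition. Since the rule removed cells with CD3 chains, low levels of T cell genes follow in part from how the cells were chosen. Of 11 checkpoint and inhibitory genes, 2 were above (Cd200r1 and Cish) and 5 below (Pdcd1, Ctla4, Lag3, Cd5 and Socs3), with Pdcd1, which encodes PD-1, at 7.93 and 11.7 CPM against 18.1 and 70.6 CPM. The medians of that list were -0.64 and -0.54. Of 9 type I interferon-stimulated genes none was above and 2 were below, and of 5 Toll-like receptor signalling and 7 MHC class II genes none passed in both libraries. In metabolism, Dgat2, Hilpda and Ldha of 11 genes were above, and in the restricted set Hilpda and Ldha were.

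Genes of other cell types were read as whole lists. Of 9 ILC1 and NK genes tested 6 were below, and the 10 genes summed to 151 and 1226 CPM in cytokine-negative ILC2s against 3103 and 3852 CPM. Of 11 T cell genes outside the rule 9 were below (summed 596 and 703 against 2510 and 4607 CPM). All 5 B and plasma cell genes tested were below (104 and 9488 against 5625 and 29379 CPM). A single old cell held 98.1% of the old UMIs of Igkc, the kappa light chain, which was at 186 CPM in the restricted set. All 7 proximal tubule genes were above (14551 and 6076 against 3320 and 1146 CPM), while in the restricted set none of 5 was. Other lymphocytes and the restricted set were both defined with 0 UMIs of Slc34a1, so these counts follow in part from how the cells were chosen. Of 8 ILC3 genes, Kit, Tmem176a and Tmem176b were above. Of 4 gamma-delta T cell genes tested Trdv4 was above, at 19.6 and 22.8 CPM against 4.42 and 0.634 CPM, and 2 were below. In the restricted set Tcrg-C4 and Trdv4 were above, and Trdc and Tcrg-C2 were below. Tcrg-C4 was at 131 and 180 CPM there, in 38.2% of young and 44.5% of old cells. Basophil and mast cell genes summed to 7.57 and 6.43 CPM with Ms4a2, Mcpt4 and Prss34 at 0, myeloid genes to 294 and 541 CPM with C1qa at 0, collecting duct genes to 196 and 756 CPM, endothelial genes to 79.1 and 56.1 CPM, and erythroid genes to 1202 and 50.3 CPM. A single young cell held 97.1% of the young UMIs of the globin gene Hbb-bs. The part of these cells or of their free RNA in the differences was not tested.

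Compared with cytokine-positive ILC2s, cytokine-negative ILC2s had few genes past the fold. The comparison asks what goes with capturing no UMI of the 2 cytokine genes. The classes were selected on those transcripts in the same cells, so the values of the comparison are a description. Ratios passed 1.5-fold upward in both libraries for 80 of 7802 genes (1.03%) and downward for 27 (0.346%). The median log2 ratio was 0.01 in each library. For 37 of the 80 and 15 of the 27 the 95% intervals left out 0 in both libraries. Old cytokine-positive ILC2s numbered 52, so that the old ratios rest on few cells.

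Of 9 cytokine and growth factor genes, 1 (Calca) was below cytokine-positive ILC2s by 1.5-fold in both libraries, with medians of -0.39 and -0.44, and of 14 immediate early and heat shock genes none passed, with medians of 0.10 and -0.02. Calca was at 306 and 413 CPM against 551 and 988 CPM, log2 ratios of -0.85 (-0.96 to -0.75) and -1.26 (-1.44 to -1.07). Its ratios were -0.76 and -1.20 in the restricted set. Young cytokine-positive ILC2s with 1 UMI of Il5 or Il13 held Calca at 528 CPM, and those with 2 or more at 577 CPM. In old the same values were 356 CPM (268 to 464) and 1405 CPM, from 26 cells each. Only the old cells with 2 or more were above the 413 CPM of old cytokine-negative ILC2s. Pcsk1, a convertase that processes neuropeptide precursors, was at 28.8 and 7.02 CPM against 57.6 and 36.1 CPM. Calca and Pcsk1 belong to peptide hormone production, and both were lower than in the whole cytokine-positive class in each library. Icos was at 412 and 463 CPM against 631 and 756 CPM, log2 ratios of -0.61 and -0.71. Areg had log2 ratios of -0.74 in young and -0.44 in old, and passed 1.5-fold in the young library. In the restricted set its ratios were -0.54 (-0.65 to -0.43) and -0.55 (-0.69 to -0.40), and it passed 1.5-fold in neither library. Ramp3, a second CGRP and adrenomedullin receptor subunit, was at 37.3 and 25.1 CPM against 59.7 and 113 CPM. Pdcd1, Muc1, Il10ra, Prr7, Gm26870 and Ptgs2 were the other low genes by the naming rule. Ptgs2, cyclooxygenase-2, had 49 old UMIs, 42.9% of them from 1 cell, and its old ratio was positive in the restricted set (1.33).

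Klf2 was higher in cytokine-negative cells, at 370 and 470 CPM against 239 and 281 CPM, log2 ratios of 0.63 (0.50 to 0.77) and 0.74 (0.45 to 1.04), and 0.82 and 0.69 in the restricted set. Il18r1, a subunit of the IL-18 receptor, was at 36.2 and 47.4 CPM, log2 ratios of 1.21 (0.70 to 1.76) and 1.39 (0.28 to 2.75). Its log2 ratios were 0.72 (-0.07 to 1.58) and 0.85 (-0.38 to 2.37) in the restricted set. Lineage genes were close: Rora had log2 ratios of -0.17 and -0.17, and none of 13 lineage transcription factor genes passed 1.5-fold in both libraries. The lists of neuropeptide and lipid receptors (Ramp3 lower, 1 of 10) and cytokine receptors (Il18r1 and Il2rb higher, Icos lower, of 10) held few genes past the fold.

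The 8 highest genes over cytokine-positive cells were Ncr1, Gzma, Xcl1, Ccl4, Ly6d, Tyrobp, Cd7 and Ccl5, most of them genes of NK cells. Part of their UMIs lay in cells with second-type genes. Gzma, granzyme A, had 99.8% of its old UMIs there, and Ncr1, the NK receptor NKp46, 48.0% of its young and 94.2% of its old UMIs. The shares were lower for Cd7, with 31.3% of its young and 67.8% of its old UMIs there, and for Ly6d in old (24.7%), where 1 cell held 74.0% of the UMIs. No cytokine-positive ILC2 of either library carried 2 NK genes. In the restricted set 125 of 7019 genes (1.78%) were higher and 98 (1.40%) lower, 21 of the 80 and 10 of the 27 among them. The restricted cytokine-positive class held 135 young and 33 old cells. Among the highest genes of the restricted set were Gimap4, Dusp2, Ncr1, Krt80, Fam71a, Cxcl1 and Nkg7. The lowest were Pdcd1, Grk3, Pcsk1, Mre11a, 5730460C07Rik, Urb1, Mcm4 and Gm26870. Of all these genes, the old intervals excluded no change only for Cxcl1, Nkg7, Pdcd1, Pcsk1 and Gm26870. Ncr1 had UMIs in 1.06% and 1.22% of restricted cytokine-negative ILC2s, and 1 UMI in each restricted cytokine-positive class. Pdcd1 was at 4.44 and 9.52 CPM in restricted cytokine-negative against 16.6 and 45.5 CPM in restricted cytokine-positive ILC2s.

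**Figure D3:**
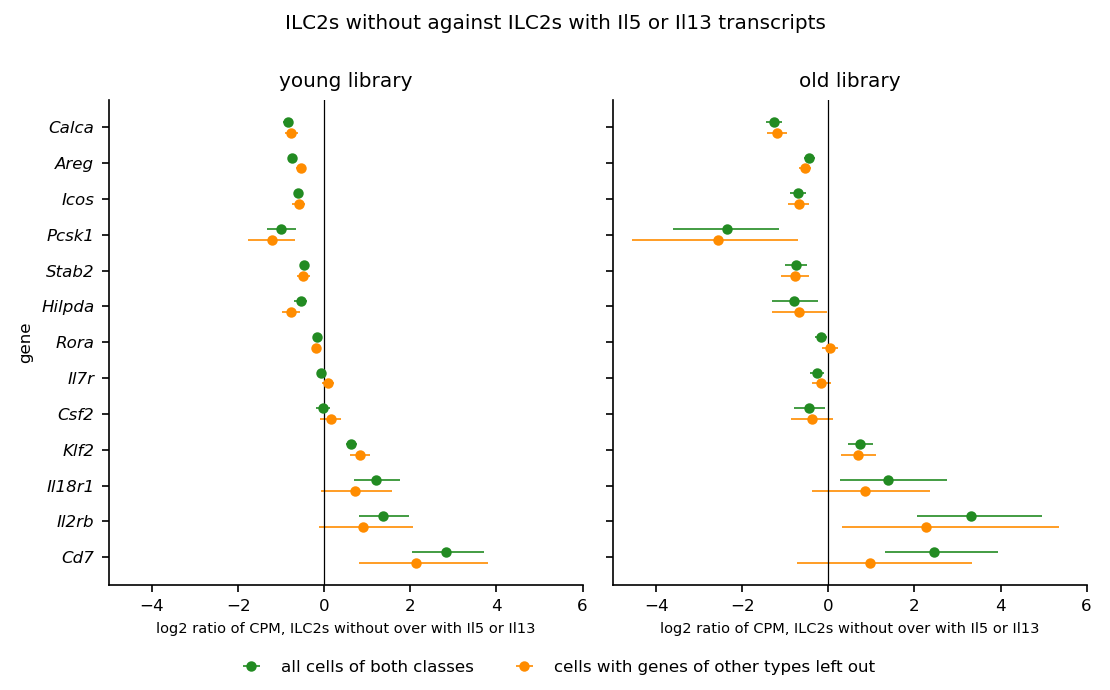
Log2 ratio of CPM, cytokine-negative over cytokine-positive ILC2s (horizontal axis), for 13 genes (vertical axis) in the young (left) and old (right) library, with all cells of both classes and with the restricted sets. Points are ratios and lines 95% exact binomial intervals; Calca (-0.85 and -1.26) lies left of 0 and Klf2 (0.63 and 0.74) right of 0 with either set of cells.

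Between libraries, old cytokine-negative ILC2s had higher Tap1, H2-Q4, Cd274 and Ccr9, and lower Il2, Arg1, Cxcl2 and Hilpda. Ratios of old over young passed 2-fold upward for 286 of 8481 genes (3.37%) and downward for 335 (3.95%), with a median log2 ratio of -0.01. Of the 335 lower genes, 310 (92.5%) had a CPM in the ILC2s below that of proximal tubule cells in at least 1 library. In the restricted set 206 of 7674 genes (2.68%) were higher and 258 (3.36%) lower, with 103 of the 286 and 98 of the 335 among them. With 1 library per age these are differences between 2 libraries.

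The highest genes by the naming rule were Jchain, Igha, Igkc, Klre1, Ccl5, Prf1, Ccl3, Ccl4, Gzma and Bcl2a1b, and they rested on few cells. A single old cell held 1740 of 1756 Jchain UMIs. Ccl5, a chemokine of cytotoxic cells, had 94.8% of its old UMIs in cells with second-type genes. Among the highest in the restricted set were H2-Eb1, H2-DMa, Tap1, Ffar2, Cd274, H2-Q4, Ms4a6b, Gbp3 and Gm4070.

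Tap1, a peptide transporter for MHC class I, was at 25.0 CPM (21.1 to 29.6) in young and 133 CPM (116 to 151) in old cytokine-negative ILC2s, a log2 ratio of 2.41 (2.10 to 2.72). H2-Q4, an MHC class Ib gene, was at 78.0 and 340 CPM, and Cd274, which encodes PD-L1, at 8.47 and 48.0 CPM. The intervals of young and old did not overlap for these 3 genes. Of 9 type I interferon-stimulated genes, 5 were above 2-fold in old and none below, median 1.41, and in the restricted set 6 of 9, median 1.31. Proximal tubule cells differed in the same direction, with Tap1 at 1.27 and 22.7 CPM and H2-Q4 at 2.82 and 30.2 CPM. Free RNA was not separated from the cells' own, and its part was not tested.

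MHC class II genes, which present peptides to helper T cells, were also present in proximal tubule cells of the old library. H2-Eb1 was at 128 CPM in old cytokine-negative ILC2s and 126 CPM in old proximal tubule cells, and the other 5 MHC class II genes were lower in the ILC2s. In the restricted set H2-Eb1 was at 152 CPM and H2-DMa at 105 CPM, against 126 and 86.9 CPM in proximal tubule cells. H2-Aa was at 140 and 232 CPM in cytokine-negative ILC2s, and at 5.24 and 449 CPM in proximal tubule cells. A single young cell held 36.1% of its young UMIs, and in the restricted set the values were 13.9 and 205 CPM. Of 6 MHC class II genes, 3 were above 2-fold in old among all cytokine-negative ILC2s and 6 in the restricted set, with medians of 0.96 and 4.33. No MHC class II expression by the ILC2s is read from these levels. Ffar2, a receptor for short-chain fatty acids, differed in that proximal tubule cells held 0.0273 and 0.0324 CPM. It was at 12.4 and 39.8 CPM in cytokine-negative ILC2s (log2 ratio 1.68, 1.17 to 2.18).

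**Figure D4:**
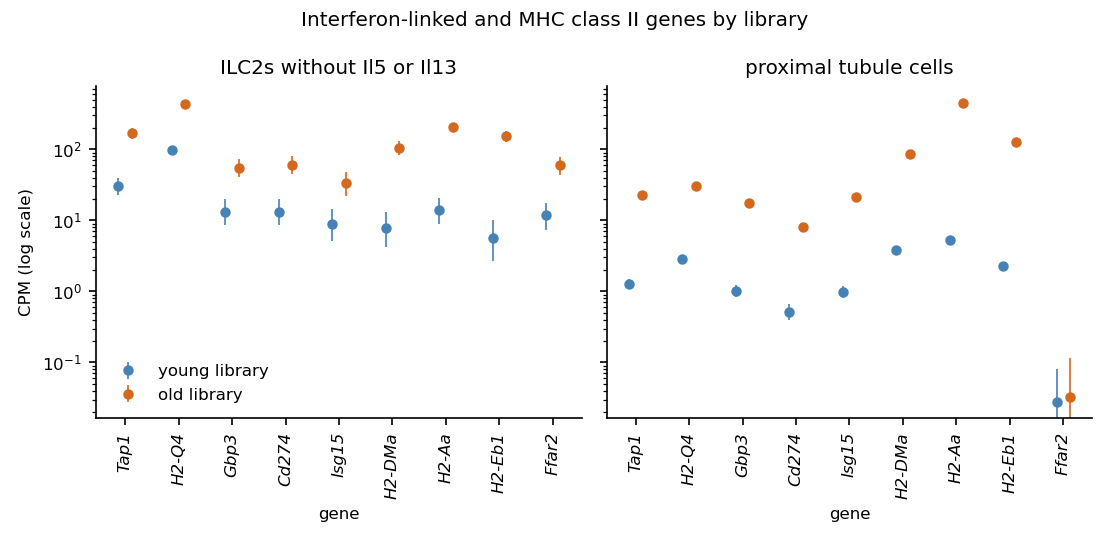
CPM (log scale, vertical axis) of interferon-linked and MHC class II genes and Ffar2 (horizontal axis) in the restricted cytokine-negative ILC2s (left) and in proximal tubule cells (right), by library. Points are CPM of summed cells with 95% exact Poisson intervals; old points lie above young ones in both panels for the other 8 genes, while Ffar2 is higher in old ILC2s and at 0.0273 and 0.0324 CPM in proximal tubule cells.

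Lower in the old library were Il2, which encodes a T cell growth factor (37.5 and 11.1 CPM, log2 ratio -1.75, -2.51 to -1.07), and Hilpda, a lipid droplet protein induced by hypoxia (177 and 63.8 CPM, -1.47, -1.77 to -1.18). Rgcc, a cell cycle regulator, was at 342 and 140 CPM, and Cxcl2, a neutrophil chemokine, at 746 and 324 CPM. Arg1 was at 88.1 and 39.2 CPM, a log2 ratio of -1.17 (-1.56 to -0.80), and -1.50 in the restricted set. Arg1 had a UMI in 30.5% of the cells in the young library and in 16.9% in the old one. Ube2c, Mns1, Coro2b, Specc1 and 1810011H11Rik were the other genes by the naming rule. In proximal tubule cells Il2, Hilpda, Cxcl2 and Arg1 were each at 3.83 CPM or less.

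Ccr9 passed 2-fold upward in the old library, at 128 and 259 CPM (log2 ratio 1.02, 0.84 to 1.19). Klrg1, an inhibitory receptor of mature ILC2s, was at 68.8 and 136 CPM and did not pass 2-fold (0.98, 0.74 to 1.22), nor did Areg, with a log2 ratio of 0.88 (0.81 to 0.95). These 3 ratios were 1.10, 0.73 and 0.82 in the restricted set. Rora was level, with a log2 ratio of 0.08 (0.01 to 0.16). Of 15 lineage transcription factor genes 2 were above 2-fold in old, Tcf7 and Zbtb16, both below 30 CPM, and 1 cell held 55.9% of the old Tcf7 UMIs. None of 10 neuropeptide and lipid receptor genes and none of 8 integrin genes passed 2-fold. Of 8 checkpoint genes Ctla4 was above, with 50% of its 34 old UMIs in a single cell.

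Areg was spread unevenly over the cells. It had a UMI in 467 of 859 young (54.4%) and 174 of 254 old (68.5%) cells, and in 29.6% and 45.4% when cells were thinned to 1000 UMIs. Proximal tubule cells, which were deeper (median 15554 and 16010 UMIs), had a UMI in 1.33% and 0.798%. The 10% of cells with the most Areg held 64.4% of young and 54.9% of old Areg UMIs, and 15.3% and 28.3% of cells held 10 or more.

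The sex-linked transcripts split each pool, and the difference between libraries in Areg CPM was not the same in the 2 parts. In cells with Y-linked and no Xist UMIs Areg was at 708 CPM (678 to 739) in young and 1810 CPM (1722 to 1901) in old. In cells with Xist and no Y-linked UMIs it was at 1088 CPM (1029 to 1149) in young and 893 CPM (808 to 985) in old. The share of cells with an Areg UMI was higher in old in both, at 57.7% and 71.5% of Y-linked and 56.0% and 65.6% of Xist cells. In CPM, Calca followed the same pattern as Areg, with 324 and 585 CPM in Y-linked and 339 and 255 CPM in Xist cells. Ccr9 and Klrg1 kept their direction in both, with Ccr9 at 140 and 311 CPM in Y-linked and at 100 and 186 CPM in Xist cells. Arg1 did so as well, but it was named by a rule that required the same sign in both subsets. The subset of old Xist cells held 64 cells.

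**Figure D5:**
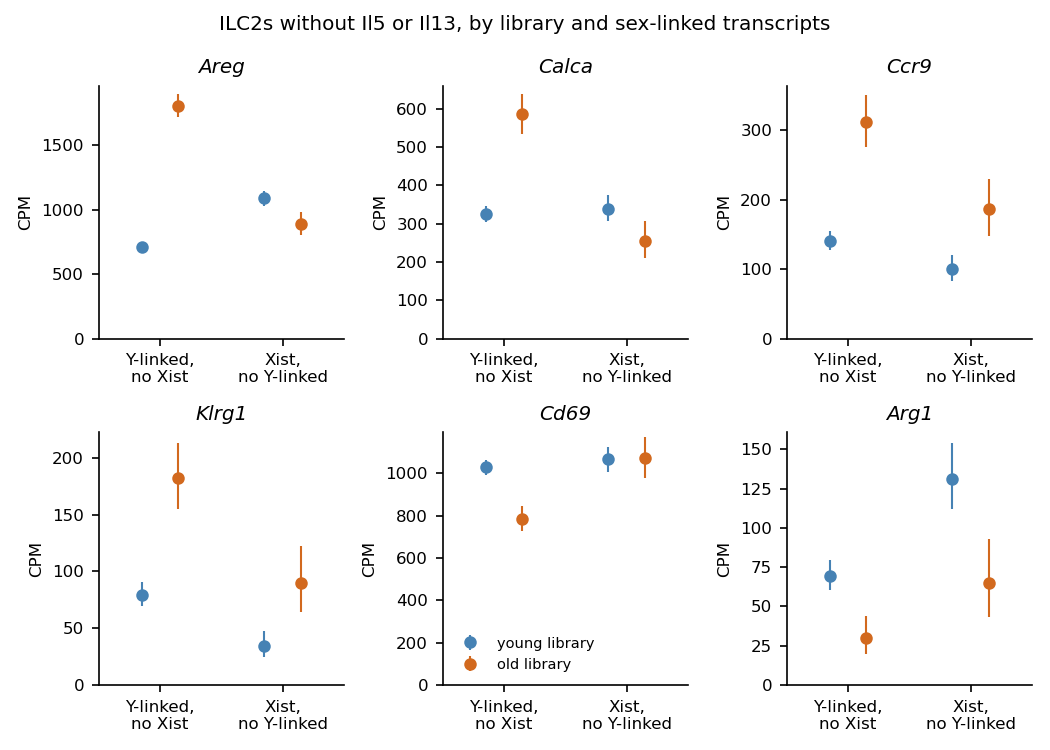
CPM (vertical axes, from 0) of 6 genes in cytokine-negative ILC2s with Y-linked but no Xist UMIs and with Xist but no Y-linked UMIs (horizontal axes), in the young and old library. Points are CPM of summed cells with 95% exact Poisson intervals; for Areg the old value is above the young one in Y-linked cells (1810 against 708) and below it in Xist cells (893 against 1088), while for Ccr9 and Klrg1 it is above in both.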

How the data were processed

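Per the labels and the study's methods, kidneys of MRL-lpr mice were pooled by age and profiled with 10x 3′ chemistry. The authors deposited raw counts (UMIs per gene and barcode) made with Cell Ranger 3 against mm10, as the submitters' notes name them. The matrices held 31053 genes and 15076 young and 12622 old barcodes, with 156787812 and 126334256 UMIs. The counts were not normalized before deposit.

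Cells were kept at 200 genes and 20% mitochondrial UMIs. The rule and the gene lists were chosen with earlier results of these data known. Other lymphocytes had at least 2 genes of T, NK and ILC1, or B cells and 0 UMIs of C1qa and Slc34a1 (T and NK cells also 0 of Cd79a and Ms4a1), and proximal tubule cells had at least 3 proximal tubule genes. Counts were summed per class and library and scaled to CPM with exact Poisson intervals, and ratios had exact binomial intervals at 95%. CPM is not scaled by gene length. Genes with a mean CPM of at least 10 in each library were tested against a fold of 2, or 1.5 against cytokine-positive ILC2s, in both libraries, and between ages against a fold of 2. A single library per age allowed no p-value. A class with 0 counts was given a limit of 3 counts. Cells were thinned to 1000 UMIs with seed 7, and shallower cells were left out (15 young and 5 old cytokine-negative ILC2s). No doublet caller was run and doublets were kept.

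Named genes against other lymphocytes were the 12 highest and 8 lowest ratios, taking the library nearer to 0, with a CPM above that of proximal tubule cells (in the lowest, that of other lymphocytes), immunoglobulin and T cell receptor segments left out. Against cytokine-positive ILC2s they were the 8 highest and 8 lowest. Between libraries they were the 10 at each end with a mean CPM of at least 20 and the same sign in Y-linked and Xist cells. Genes of the lists were named by level or fold. The ratio code was tested on simulated data. Python 3.11.15, NumPy 2.4.6, SciPy 1.17.1, pandas 2.3.3 and Matplotlib 3.10.9 were used. Of the gene lists, 3 genes were not matched by name and were not used here. Values of some single genes are not reported here. Alternatives covered the mitochondrial, gene and UMI limits, the rule genes, the comparison class, the minimum CPM, scaling per cell, thinning and sex-linked subsets.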

Additional observations from a re-analysis of the deposited data

Results flagged for a closer look

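Both pools held cells with Y-linked and cells with Xist UMIs, and 7 genes differed between the old and young libraries in opposite directions in these 2 subsets of cytokine-negative ILC2s, with log2 ratios at least 1 apart. Of 8425 genes tested between libraries, 5104 (60.6%) had the same sign in both subsets. Opposite signs were therefore common among all genes, and the 7 genes are not shown to stand out. The difference between subsets was not tested, since each age had 1 pool and the split was made by UMIs. Areg had log2 ratios of old over young of 1.35 (1.26 to 1.45) in Y-linked and -0.28 (-0.45 to -0.12) in Xist cells. Calca had 0.85 (0.70 to 1.01) and -0.41 (-0.72 to -0.11). The chemokine receptor gene Ccr2 had -1.28 (-1.78 to -0.82) and 0.74 (0.31 to 1.16). The chemokine gene Cxcl1 had 0.58 (0.21 to 0.94) and -1.60 (-2.87 to -0.54), with its old Xist value resting on 8 UMIs in 2 cells. The immediate early gene Egr1 had 0.35 (0.12 to 0.57) and -1.53 (-2.03 to -1.07). The prostaglandin E2 receptor gene Ptger4 had 0.43 (0.12 to 0.74) and -0.62 (-1.24 to -0.05). The mitosis gene Birc5 had -1.21 (-2.33 to -0.26) and 1.16 (0.38 to 1.93), with its old UMIs in 1 Y-linked cell (10 UMIs) and 1 Xist cell (28 UMIs).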

How the results depend on the processing

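No paired analysis was possible because there was 1 library per age and the labels share no replicate numbers beyond it. Leaving out ILC2s with 2 genes of another cell type, and also those with a UMI of Slc34a1, C1qa, Cd79a or Ms4a1, were chosen after seeing the data. Causes of the shifts below were not tested, except that a CPM minimum changes how many genes are counted.

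The share of kept cells that were cytokine-negative ILC2s moved from 7.52% in young to 8.54% at 10% mitochondrial UMIs, 5.48% with 3 of the 4 rule genes, 2.16% with 0 UMIs of Trbc1, Trbc2 and Trdc, and 5.11% without cells holding second-type genes as set in the plan. In old it moved from 2.48% to 1.86%, 0.733% and 2.04% under the last 3. The share with Areg after thinning was 21.5%, 39.9% and 54.4% in young and 36.6%, 54.7% and 68.5% in old at 500 UMIs, 2000 UMIs and no thinning.

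Counts above other lymphocytes moved from 698 to 381 without second-type cells, 387 in the restricted set, 421 with mean CPM per cell, 454 after thinning, 202 at 50 CPM and 1795 with no minimum. Counts below moved from 298 to 111 at 50 CPM and 579 with none. Against cytokine-positive ILC2s, genes higher and lower moved from 80 and 27 to 204 and 227 without Trbc1, Trbc2 and Trdc, 125 and 98 in the restricted set, 138 and 405 after thinning, 7 and 7 at 50 CPM, 274 and 212 with no minimum, and 126 and 74 with cytokine-positive cells of at least 2 UMIs. The lower count was 63 with 3 rule genes and 63 without second-type cells. Old over young moved from 286 higher and 335 lower to 476 and 1213 without Trbc1, Trbc2 and Trdc, 599 and 733 after thinning, 71 and 101 at 50 CPM, 1555 and 1008 with no minimum, and 580 and 1115 in Xist cells, and the lower count was 202 without second-type cells.

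Single log2 ratios changed sign as follows. With 3 rule genes, Gzma was -1.31 against cytokine-positive ILC2s in old and -2.73 for old over young. Without Trbc1, Trbc2 and Trdc, old ratios against cytokine-positive ILC2s were -0.04 for Ccl4, -0.50 for Ly6d, -1.18 for Cd7, -0.11 for Ccl5 and 0.59 for Muc1, young ratios were 0.04 for Ptgs2 and 2.32 for Gm26870, and old over young was -0.72 for Ccl3, -0.39 for Ccl4 and -0.09 for Bcl2a1b. Old Ptgs2 was 1.13 without second-type cells and 1.33 in the restricted set. Gzma for old over young was -0.43 without cells holding 2 genes of another type and -0.90 in the restricted set. Against T cells alone young Ms4a1 was 1.99. That class was defined with 0 UMIs of Ms4a1, so the ratio is to the limit of 3 counts and is not a measured change. Against NK and ILC1 cells alone old Klrg1 was -1.24, and against cytokine-positive cells of at least 2 UMIs old Gm26870 was 0.62. Of 1724 values of single genes computed under alternatives, 1309 moved by less than counting error and kept their direction. Ratios against old cytokine-positive ILC2s are limited by their 52 cells, and by 33 cells in the restricted set.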
